A study of Mus musculus with 2 samples.

Results

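Meox1, Meox2, Tcf15, Uncx, Pax1, Pax3, Pax9 and Nkx3-2 encode transcription factors of the paraxial mesoderm, and they were followed here in single cells of the Mesp1 lineage at E9.5. They were taken by their gene symbols, which matched 8 of the 27998 genes counted. The data are 2 droplet-based libraries, 1 per group. The embryos labelled Ctrl were Mesp1Cre;Rosa26-GFPflox/+. The embryos labelled cKO were Mesp1Cre;Rosa26-GFPflox/+;Tbx1flox/flox, so that the Cre should inactivate Tbx1 wherever it acts. Both groups therefore carried the Cre driver and the GFP reporter, on a Swiss Webster background. Mesp1Cre acts in the early mesoderm, and GFP-positive live cells were sorted after dissection of the pharyngeal apparatus and heart. Each library came from a pair of pooled embryos, and the cKO embryos had slightly more somites. With 1 library per group there was no replicate to set against any difference below, so nothing was tested between genotypes and each comparison describes these libraries. All intervals are 95% intervals and cover counting error only.

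The paraxial mesoderm flanks the neural tube and is cut into somites, the blocks from which vertebrae, ribs, trunk muscle and dermis arise. Meox1 and Meox2 are homeobox genes used throughout the early somite, and Tcf15 encodes a basic helix-loop-helix factor that keeps the young somite epithelial. The ventral somite becomes the sclerotome, the source of cartilage, and is marked by the paired box genes Pax1 and Pax9 and by the homeobox gene Nkx3-2, while the homeobox gene Uncx marks the caudal half-segment. The dorsal somite becomes the dermomyotome, the source of muscle precursors, and is marked by Pax3. The pharyngeal arches contain cardiopharyngeal mesoderm, which uses Tbx1, a T-box gene, and forms heart and branchiomeric muscle.

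In the mm10 genome, taken from RefSeq for GRCm38.p6, Meox1 lies at chr11:101877510-101894354, Meox2 at chr12:37108540-37179534, Tcf15 at chr2:152143056-152149097 and Uncx at chr5:139543865-139548179. Pax1 lies at chr2:147361930-147375049, Pax3 at chr1:78101267-78197136, Pax9 at chr12:56691693-56712824 and Nkx3-2 at chr5:41761483-41764220. RefSeq promoters were matched for 5 of the 8 members, Meox2, Uncx, Pax1, Pax9 and Nkx3-2. The promoters of the sclerotome genes Pax1 and Pax9 and of Uncx are shown because the results on the Pax1-led cluster turn on them: taken by library, Pax1 and Uncx were lower there and Pax9 was level. Each run is the 250 bases before the transcript start used in the RefSeq promoter table, which for these 3 genes lies inside the span given above and not at its first base. The runs are written 5′ to 3′ on the plus strand, at chr2:147364744-147364993 for Pax1, chr12:56695221-56695470 for Pax9 and chr5:139543648-139543897 for Uncx, with an E-box (CANNTG) or the homeodomain core TAATTA in capitals.
Pax1: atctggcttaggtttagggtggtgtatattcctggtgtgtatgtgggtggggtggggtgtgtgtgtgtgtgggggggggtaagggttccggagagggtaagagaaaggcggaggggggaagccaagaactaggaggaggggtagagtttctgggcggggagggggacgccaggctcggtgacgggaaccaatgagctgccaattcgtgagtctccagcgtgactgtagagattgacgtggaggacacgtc
Pax9: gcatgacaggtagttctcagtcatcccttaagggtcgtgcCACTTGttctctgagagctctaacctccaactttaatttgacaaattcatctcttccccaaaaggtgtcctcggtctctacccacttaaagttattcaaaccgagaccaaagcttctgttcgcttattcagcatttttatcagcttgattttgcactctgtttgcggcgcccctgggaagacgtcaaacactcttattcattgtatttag
Uncx: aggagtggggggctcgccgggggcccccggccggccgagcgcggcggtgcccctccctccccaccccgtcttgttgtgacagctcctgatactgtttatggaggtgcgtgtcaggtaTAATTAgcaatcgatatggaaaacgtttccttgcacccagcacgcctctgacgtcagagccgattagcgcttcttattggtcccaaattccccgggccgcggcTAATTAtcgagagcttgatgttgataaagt
The Uncx promoter held TAATTA at 2 places, and 4.84% of the 32851 RefSeq promoters of this length held it. An E-box stood in 3 of the 5 member promoters, those of Meox2, Pax9 and Nkx3-2, against 66.2% of all promoters. The T-box half-site AGGTGTGA was in 0 of the 5 on either strand and in 1.12% of all promoters. Pax1 held none of these letters in its window. GC content ranged from 43.6% in Pax9 to 68.8% in Nkx3-2, where the median of all promoters was 52.4%.

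After filtering, 6591 cells were kept from the library labelled Ctrl and 8969 from the library labelled cKO, with medians of 16854 and 14192 unique molecular identifiers (UMIs) per cell. Levels are UMIs per 1000000 UMIs of a population (CPM), and shares are cells with at least 1 UMI after each cell was thinned to 5000 UMIs. The libraries shared 15 cell barcodes. Tbx1 itself went against the label. In MLP-like cells, the multilineage primed progenitors of the cardiopharyngeal mesoderm, it stood at 57.4 CPM in the library labelled Ctrl and 114 CPM in the library labelled cKO (log2 ratio 0.99, 0.88 to 1.11). A count of 3′ ends is the same for an intact and a recombined Tbx1 transcript if both are made, so this level does not check the deletion. The names "labelled Ctrl" and "labelled cKO" are used throughout for this reason.

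Each library also split by embryo. Cells with Xist UMIs and no UMI of a Y-linked gene made up 3371 (51.1%) and 5083 (56.7%) of the kept cells, and cells with Y-linked UMIs and no Xist UMI 2647 (40.2%) and 2778 (31.0%). Since each pool was a pair of embryos, the former kind is called the Xist-positive embryo and the latter the Y-positive embryo of its library. This split was read from the data and is not one of the study's groups, and sex was not genotyped. This gave 4 embryos over both libraries. The remaining 573 and 1108 cells, with neither or both kinds of UMI, are in the library values only.

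Of 23 clusters, built without any member as a feature, a pair took the name paraxial mesoderm-like from their markers. The larger one, with 426 and 636 cells, met 5 of 15 listed paraxial markers, Zic1, Foxc2, Tbx18, Fst and Sox9, and its leading genes by fold were Pax1, Zic1 and Lum, with Pax9, Tcf15 and Meox2 among the leading 10. It is called the Pax1-led cluster. The smaller one, with 131 and 110 cells, met Dmrt2, Sim1, Lbx1, Pax7 and Fst, and was led by Pax3, Tcf15 and Fap. It is called the Pax3-led cluster. Tbx6, Msgn1 and Mesp2, which define unsegmented presomitic mesoderm, had 0 UMIs in both. Paraxial mesoderm-like cells were 8.45% (7.79 to 9.15) of the library labelled Ctrl and 8.32% (7.75 to 8.91) of the library labelled cKO.

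Most members were concentrated in these cells. Of all kept Pax3 UMIs, 95.1% and 91.6% lay in paraxial mesoderm-like cells, and of all Pax1 UMIs 93.1% and 90.7%. Tcf15 had 80.3% and 73.7% there. The Pax1 and Pax3 levels separated both clusters. In the library labelled Ctrl Pax1 stood at 117 CPM in the Pax1-led and 13.3 CPM in the Pax3-led cluster, and Pax3 at 10.3 and 367 CPM. Meox1 was the most widespread member, with 47.0% of its UMIs in paraxial mesoderm-like cells of the library labelled Ctrl and 20.3% in the other library. Nkx3-2 was near the counting limit everywhere. It had 6 and 11 UMIs over all kept cells, of which 1 and 5 were in paraxial mesoderm-like cells, and no ratio is given for it.

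**Figure D1:**
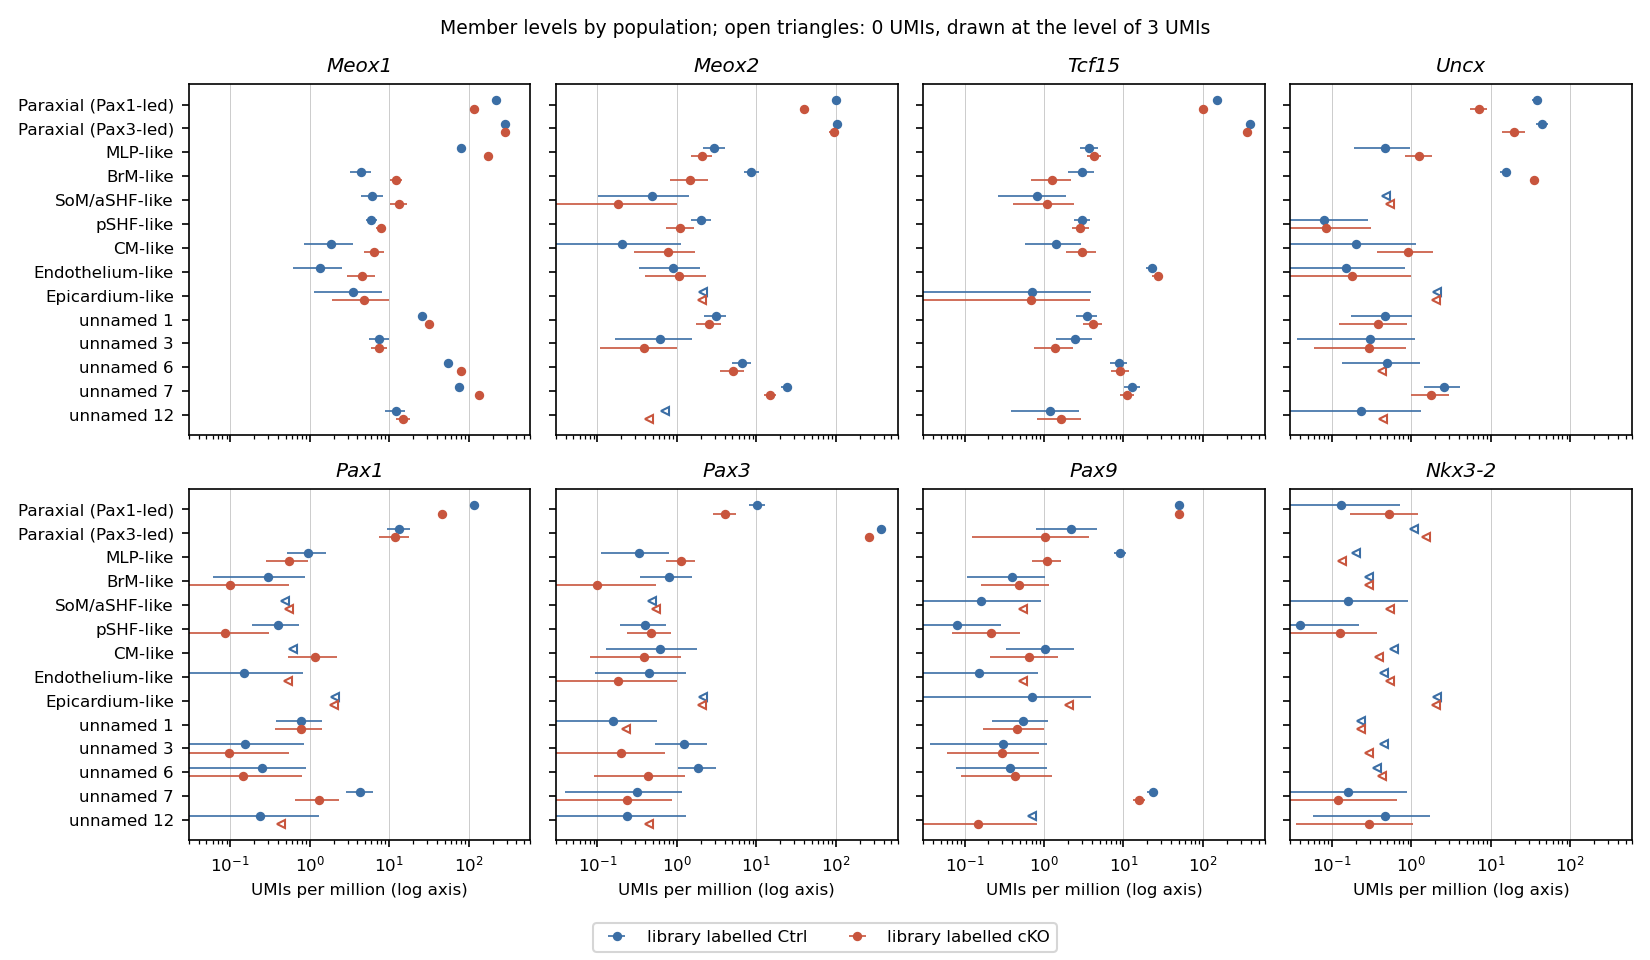
Levels of the 8 members by population and library, in CPM on a log axis, with 95% Poisson intervals, 1 panel per member. Open triangles mark 0 UMIs and are drawn at the level of 3 UMIs, and unnamed 7 is a cluster led by Crym. Pax1 and Pax3 stand highest in 1 paraxial cluster each, whereas Meox1 also reaches 174 CPM in MLP-like cells of the library labelled cKO.

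Taken by library, most members were lower in the paraxial mesoderm-like cells labelled cKO, and Pax9 was not. Meox1 stood at 237 and 146 CPM in the libraries labelled Ctrl and cKO (log2 ratio −0.70, −0.79 to −0.61). Meox2 stood at 102 and 49.1 CPM (log2 ratio −1.05, −1.20 to −0.90). Tcf15 stood at 212 and 145 CPM (log2 ratio −0.55, −0.65 to −0.46). The somite-wide genes were thus lower by different amounts, with Meox2 the only one of these past 2-fold. Uncx showed the widest gap, at 39.5 and 9.25 CPM (−2.09, −2.42 to −1.78). Among the sclerotome genes Pax1 stood at 89.2 and 40.0 CPM (log2 ratio −1.16, −1.32 to −0.99). Pax9, its close relative, stood at 37.2 and 41.3 CPM, and the interval of its log2 ratio of 0.15 included 0 (−0.05 to 0.35). Pax3, the dermomyotome gene, stood at 106 and 47.6 CPM (−1.15, −1.30 to −1.005).

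Of the 7 members with at least 10 CPM in a library and 30 UMIs over both, 4 were at least 2-fold lower in the library labelled cKO, namely Meox2, Uncx, Pax1 and Pax3, and 0 were at least 2-fold higher. Uncx reached 10 CPM only in the library labelled Ctrl, so its call describes that library's level and supports nothing further. This leaves Meox2, Pax1 and Pax3 above 10 CPM in both libraries. Of all 7750 genes at that floor in these cells, 1.48% were at least 2-fold lower and 1.21% at least 2-fold higher. The median log2 ratio was −0.87 over all 8 members, Nkx3-2 with its 1 and 5 UMIs included, beside −0.06 over all genes at the floor. Over the 7 members at the floor it was −1.05, a value that counts Uncx and supports nothing further. This direction did not hold in both kinds of embryo. The median was −2.71 between the Xist-positive embryos and 0.25 between the Y-positive ones, and of the 4 members only Uncx and Pax3 were lower in both embryos labelled cKO than in both labelled Ctrl, as were 39.6% of genes.

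The clusters were read apart, and the difference between them was not tested. The cells labelled cKO were 260 Xist-positive and 268 Y-positive in the Pax1-led cluster but 12 and 79 in the Pax3-led cluster, so cluster and mix of embryos cannot be told apart in these library values. In the Pax1-led cluster 4 of the 7 members at the floor, Meox2, Uncx, Pax1 and Pax3, were at least 2-fold lower in the library labelled cKO, against 1.53% of genes. Of these Uncx, and Pax3 at 10.3 and 4.00 CPM, reached 10 CPM only in the library labelled Ctrl, which leaves Meox2 and Pax1 above it in both. Meox1 stood at 219 and 117 CPM there, Pax1 at 117 and 45.8 CPM, and Uncx at 37.8 and 7.16 CPM. Pax9 was level at 49.98 and 49.6 CPM (log2 ratio −0.01, −0.21 to 0.19). In shares of thinned cells, 31.1% and 13.2% had a Pax1 UMI, whereas 22.3% and 20.3% had a Pax9 UMI. In the Pax3-led cluster 1 of the 6 members at the floor was at least 2-fold lower, Uncx, at 44.2 and 19.4 CPM from 123 and 38 UMIs, against 4.26% of genes. Meox1 stood at 287 and 291 CPM there, Meox2 at 103 and 95.1 CPM and Tcf15 at 385 and 359 CPM, and all 3 intervals of the ratio included 0. Pax3 stood at 367 and 259 CPM (log2 ratio −0.50, −0.66 to −0.35).

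Some cells held Pax1 and Pax9 together. Among cells of the Pax1-led cluster, 44 of 421 thinned cells (10.5%) labelled Ctrl and 17 of 629 (2.70%) labelled cKO had a UMI of both. The latter share pools an embryo with Pax1 and an embryo in which 0 of 258 thinned cells had a Pax1 UMI, so it is not read as a difference in how the genes were combined. Meox1 accompanied Pax1 in both libraries, in 71.8% and 74.7% of the Pax1-positive cells. Counting cells with Pax1 or Pax9 over all paraxial mesoderm-like cells gave 34.1% (188 of 552, 30.1 to 38.2) and 26.8% (198 of 738, 23.7 to 30.2). The direction turned with the embryos, since the share labelled cKO minus that labelled Ctrl was −22.1 percentage points between the Xist-positive and 16.5 between the Y-positive ones. In CM-like cells, the cardiomyocytes, which should lack both genes, these shares were 0.375% and 0.214%. Without thinning, the shares in paraxial mesoderm-like cells were 51.9% and 45.3%.

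The library difference in the Pax1-led cluster did not hold in both pairs of embryos. Meox1 stood at 257 CPM in the Xist-positive and 113 CPM in the Y-positive embryo labelled Ctrl, and at 32.3 and 194 CPM in those labelled cKO. Tcf15 stood at 179 and 56.4 CPM in the embryos labelled Ctrl and at 29.5 and 164 CPM in those labelled cKO. Meox2 gave 122 and 45.1 CPM, then 14.2 and 68.6 CPM. For each of these genes the lowest and the second highest values were the embryos labelled cKO, so the groups overlapped. The log2 ratios of Meox1 were −2.99 (−3.27 to −2.73) between the Xist-positive embryos and 0.78 (0.54 to 1.02) between the Y-positive ones.

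Pax1 was the extreme case. In this cluster it had 804 UMIs in 307 Xist-positive cells labelled Ctrl (144 CPM) and 0 UMIs in 260 Xist-positive cells labelled cKO. With a floor of 3 counts over those 260 cells its level was at least 186-fold lower. After thinning, 0 of 258 cells held a Pax1 UMI, which allows a share of cells with a UMI at this depth of up to 1.16%. In the Y-positive embryos Pax1 stood at 38.5 CPM labelled Ctrl and 87.4 CPM labelled cKO (log2 ratio 1.18, 0.78 to 1.61). Uncx had 260 UMIs and 1 UMI in the Xist-positive embryos, and 10.6 and 14.7 CPM in the Y-positive ones. Pax9 stayed within a narrow range, at 56.4, 35.1, 48.9 and 49.8 CPM in the Xist-positive and Y-positive embryos labelled Ctrl and then cKO. In the Pax1-led cluster alone all 8 members overlapped between the groups, where 36.7% of genes were lower in both embryos labelled cKO.

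**Figure D2:**
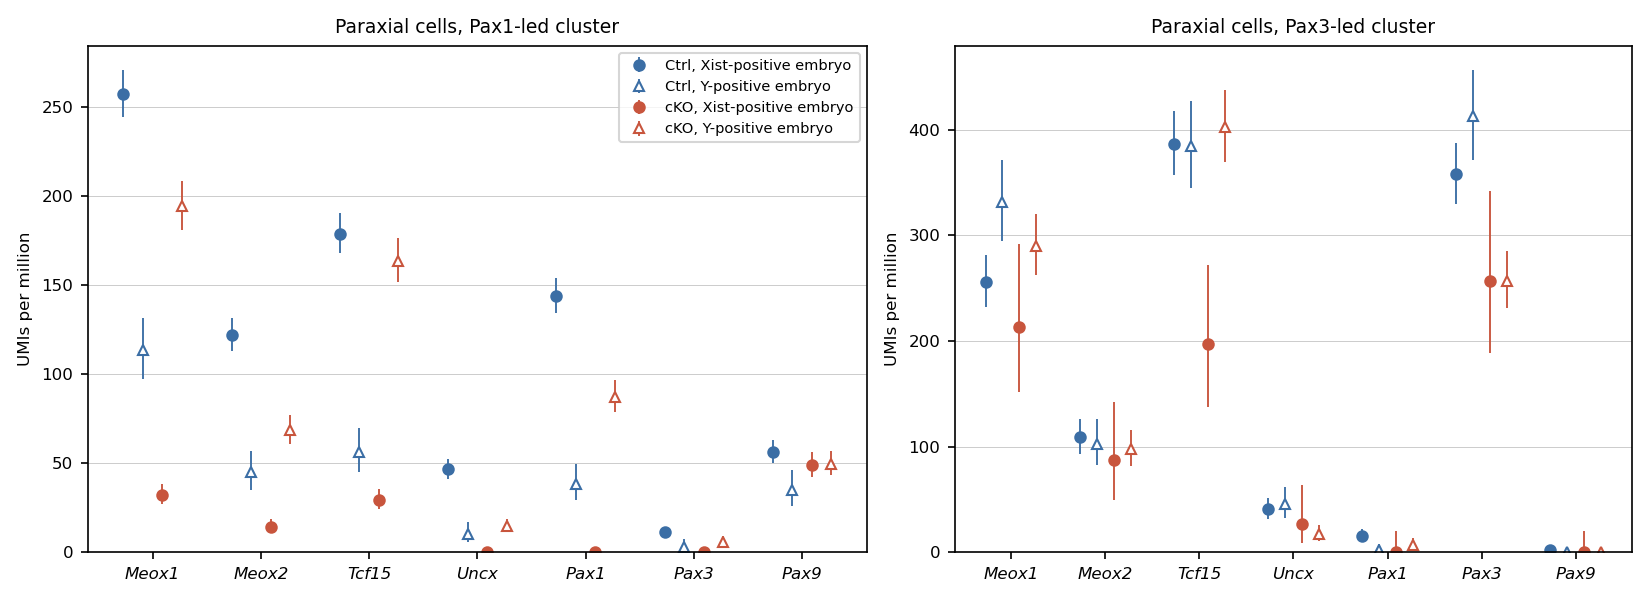
Member levels in the Pax1-led (left) and Pax3-led (right) clusters for the 4 embryos, in CPM with 95% Poisson intervals. In the Pax1-led cluster the Xist-positive embryo labelled cKO is lowest for every member shown but Pax9, and the Y-positive embryo labelled cKO lies above the Y-positive embryo labelled Ctrl.

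The share of cells with several members followed the same embryos, which restates the low levels and does not check the paraxial name. In the Pax1-led cluster, 2 or more members had a UMI in 67.9% of thinned cells (207 of 305) of the Xist-positive embryo labelled Ctrl. The Y-positive one gave 22.7% (20 of 88). The embryos labelled cKO gave 7.75% (20 of 258) and 52.8% (141 of 267). Xist-positive cells of the cluster labelled cKO held Tbx1 at 128 CPM, against 6.09, 48.4 and 52.0 CPM in the Xist-positive and Y-positive embryos labelled Ctrl and the Y-positive embryo labelled cKO. Over the cluster the summed level of the 11 MLP markers was 84.2 CPM in the library labelled Ctrl and 163 CPM in the library labelled cKO, with 0 of the 11 at 0 in either library. Tbx1, which is on that list, was itself 16.0 and 85.3 CPM, most of that gap. Other lists were higher there too, at 20.7 and 50.5 CPM for 5 epithelial markers, 5.66 and 16.5 CPM for 5 neural tube markers and 0.395 and 147 CPM for 6 erythroid markers, of which 2, 2 and 4 were at 0 in the library labelled Ctrl. The 10 CM markers summed to 28.1 and 49.6 CPM and the 8 endothelium markers to 46.7 and 67.3 CPM. Lower in the library labelled cKO were the summed levels of the 15 paraxial markers, at 741 and 539 CPM, 7 cranial mesenchyme markers, at 309.5 and 237 CPM, 6 neural crest markers, at 9.60 and 4.95 CPM, 9 posterior second heart field markers, at 64.1 and 48.7 CPM, and 7 branchiomeric muscle progenitor (BrM) markers, at 169 and 150.4 CPM. The paraxial list, also the longest, had the highest sum in both libraries. The lists were summed per library and not per embryo, and the part of these markers in the member levels was not tested. The erythroid rise was not particular to the Pax1-led cluster. That list stood at 0 and 176 CPM in the Pax3-led cluster and 0.541 and 148 CPM in MLP-like cells. The cluster named erythroid held 0 cells labelled Ctrl and 159 labelled cKO. In the Pax1-led cluster Sox9, a cartilage regulator on the paraxial list, stood at 369 and 363 CPM in the embryos labelled Ctrl. It stood at 252 and 238 CPM in those labelled cKO, below both labelled Ctrl, as did 36.7% of genes.

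**Figure D3:**
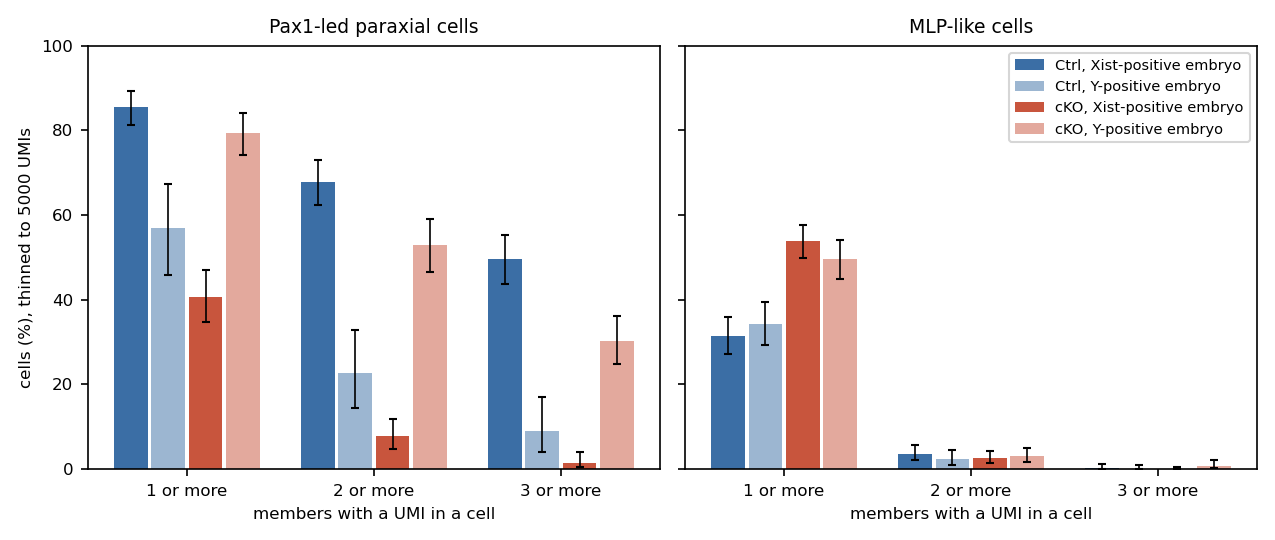
Share of thinned cells with at least 1, 2 or 3 members, in percent, in the Pax1-led cluster (left) and MLP-like cells (right) for the 4 embryos, with 95% Clopper-Pearson intervals. In the Pax1-led cluster 67.9%, 22.7%, 7.75% and 52.8% of cells had 2 or more members, and in MLP-like cells at most 3.66%.

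The number of paraxial cells followed the same split. Paraxial mesoderm-like cells made up 11.4% (385 of 3371) of the Xist-positive and 5.02% (133 of 2647) of the Y-positive embryo labelled Ctrl. They made up 5.35% (272 of 5083) and 12.5% (347 of 2778) of the embryos labelled cKO. The Pax3-led cluster held 78 and 44 cells of the embryos labelled Ctrl and 12 and 79 cells of those labelled cKO. Every thinned cell of that cluster had at least 1 member, 131 of 131 and 109 of 109, so the few Xist-positive cells labelled cKO that it held still carried them.

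Within the Pax3-led cluster the embryos lay closer together. Meox2 stood at 109 and 103 CPM in the Xist-positive and Y-positive embryos labelled Ctrl and at 87.4 and 97.8 CPM in those labelled cKO. Pax3 stood at 358 and 412 CPM against 257 and 257 CPM, and Uncx at 40.7 and 45.7 CPM against 27.3 and 17.5 CPM. These 3 members were lower in both embryos labelled cKO, as were 33.9% of the genes compared there. Meox1 overlapped, at 256 and 331 CPM against 213 and 290 CPM, and Tcf15 overlapped as well, at 387 and 385 CPM against 197 and 402 CPM. Tcf15 and Pax3 were found together in 62.6% of thinned cells labelled Ctrl and 56.9% of those labelled cKO, close to the products of their shares of 63.0% and 53.5%.

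Other genes of the somite were read from a list of 34. In paraxial mesoderm-like cells 19 reached the floor, of which 4 were at least 2-fold lower in the library labelled cKO and 1 at least 2-fold higher, beside the 1.48% and 1.21% of all genes, with a median log2 ratio of −0.36. In the Pax1-led cluster 14 of the 34 reached the floor. Of all genes there 1.53% were at least 2-fold lower and 1.31% at least 2-fold higher. The 1 lower listed gene was Aldh1a2, which makes retinoic acid, at 177 and 24.9 CPM by library, not split by embryo. The 1 higher listed gene was Tbx1. Its embryos stood at 6.09 and 128 CPM in the Xist-positive pair but at 48.4 and 52.0 CPM in the Y-positive pair. The other genes there were nearer to level. Twist1, a mesenchymal factor, stood at 564 and 531 CPM, and Tbx18, which marks the rostral half-segment, at 51.3 and 50.3 CPM. In the Pax3-led cluster 17 of the 34 reached the floor, with a median log2 ratio of −0.60 beside −0.10 over all genes at the floor. Of all those genes 4.26% were at least 2-fold lower in the library labelled cKO. Myf5, Pax7, Dmrt2, Sim1 and Met were among the listed genes that were. Myf5 and Pax7 reached 10 CPM only in the library labelled Ctrl, and the Xist-positive embryo labelled cKO had 12 cells in this cluster. Myf5, which starts the skeletal muscle programme, stood at 43.5 and 8.69 CPM there. Dmrt2, active in the dermomyotome, stood at 90.6 and 32.2 CPM, and Pax7, a close relative of Pax3, at 16.5 and 3.07 CPM. Lbx1, used by migrating muscle precursors, stood at 58.2 and 73.6 CPM (log2 ratio 0.34, 0.00 to 0.67). The myogenic genes Myod1, Myog and Myf6 had at most 4 UMIs in either library in that cluster.

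Meox1 was also present outside the paraxial mesoderm, and there it was higher in the library labelled cKO. In MLP-like cells, 893 and 1348 in number, it stood at 80.3 CPM (75.8 to 85.0) in the library labelled Ctrl and 174 CPM (169 to 180) in the library labelled cKO, from 1186 and 3841 UMIs. The log2 ratio was 1.12 (1.03 to 1.21). Meox1 was the only member at the floor in these cells and was at least 2-fold higher, as were 0.96% of the 7707 genes there. In contrast to the Pax1-led cluster, all embryos went the same way. The Xist-positive and Y-positive embryos stood at 79.7 and 81.8 CPM labelled Ctrl and at 181 and 168 CPM labelled cKO. The groups did not overlap, and both embryos labelled cKO lay above both labelled Ctrl for 27.2% of genes, most of them less than 2-fold apart. All 74 genes at least 2-fold higher there (0.96%) had embryos in that order, so the agreement adds nothing to the Meox1 call. Marker lists moved in these cells as well. The MLP list itself summed to 802 and 514 CPM, although Tbx1 on it was higher in the library labelled cKO. The lists for posterior second heart field stood at 226 and 105 CPM, for BrM at 308 and 190.1 CPM, for SoM/aSHF, which joins somatic mesoderm with the anterior second heart field, at 147 and 78.2 CPM, for cranial mesenchyme at 165 and 119.97 CPM and for epicardium at 26.7 and 12.1 CPM. The erythroid list was higher in the library labelled cKO, at 0.541 and 148 CPM, as it was in both paraxial clusters. Also higher in that library were the neural tube list, at 6.70 and 12.9 CPM, and the epithelial list, at 52.1 and 70.02 CPM. The CM, endothelium and neural crest lists moved less, at 129.7 and 136, 86.8 and 76.3, and 10.6 and 13.1 CPM. The part of these markers in the Meox1 level was not tested. Both clusters named MLP-like showed the higher Meox1 level, at 82.1 and 183 CPM in one and 78.0 and 164 CPM in the other.

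The progenitors with Irx1, a homeobox gene on the MLP marker list, were taken apart from the rest. Of Irx1-positive MLP-like cells 28.6% (77 of 269, 23.3 to 34.4) had a Meox1 UMI in the library labelled Ctrl and 52.9% (281 of 531, 48.6 to 57.2) in the other library. Among Irx1-negative MLP-like cells 29.4% (180 of 613) and 47.9% (388 of 810) had one. The share was thus higher in the library labelled cKO with or without Irx1. As a level, Meox1 stood at 87.9 and 199 CPM in Irx1-positive and 76.8 and 158 CPM in Irx1-negative cells. Over all kept cells, 19.2% (116 of 603) and 38.2% (385 of 1009) of Irx1-positive cells had a Meox1 UMI. In CM-like cells, which should lack Meox1, the share was 0.749% (2 of 267) and 1.92% (9 of 468). Without thinning, 57.7% and 74.6% of MLP-like cells had a Meox1 UMI.

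Few MLP-like cells held several members. A UMI of 2 or more members was found in 3.51% and 3.13% of MLP-like cells, although at least 1 had a UMI in 32.9% and 51.8%. Of the 15 listed paraxial markers, Zic1, Dmrt2, Lbx1 and Sim1 were each found in at most 0.598% of Meox1-positive or Meox1-negative cells. Not all of the list was this low. The summed level of the 15 paraxial markers in MLP-like cells was 183 CPM in the library labelled Ctrl and 105 CPM in the library labelled cKO, the opposite way to Meox1, with 5 and 3 of the 15 above 10 CPM and 2 and 3 at 0. Genes of the progenitors themselves differed somewhat between Meox1-positive and Meox1-negative cells. In the library labelled cKO Tbx1 was found in 44.7% of the former and 33.9% of the latter, and Isl1, a second heart field factor, in 22.7% and 32.3%. In the library labelled Ctrl these shares were 28.4% and 22.7% for Tbx1 and 34.6% and 43.2% for Isl1. Irx1 was found in 29.96% and 30.7% of these cells labelled Ctrl and in 42.003% and 37.2% of those labelled cKO.

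**Figure D4:**
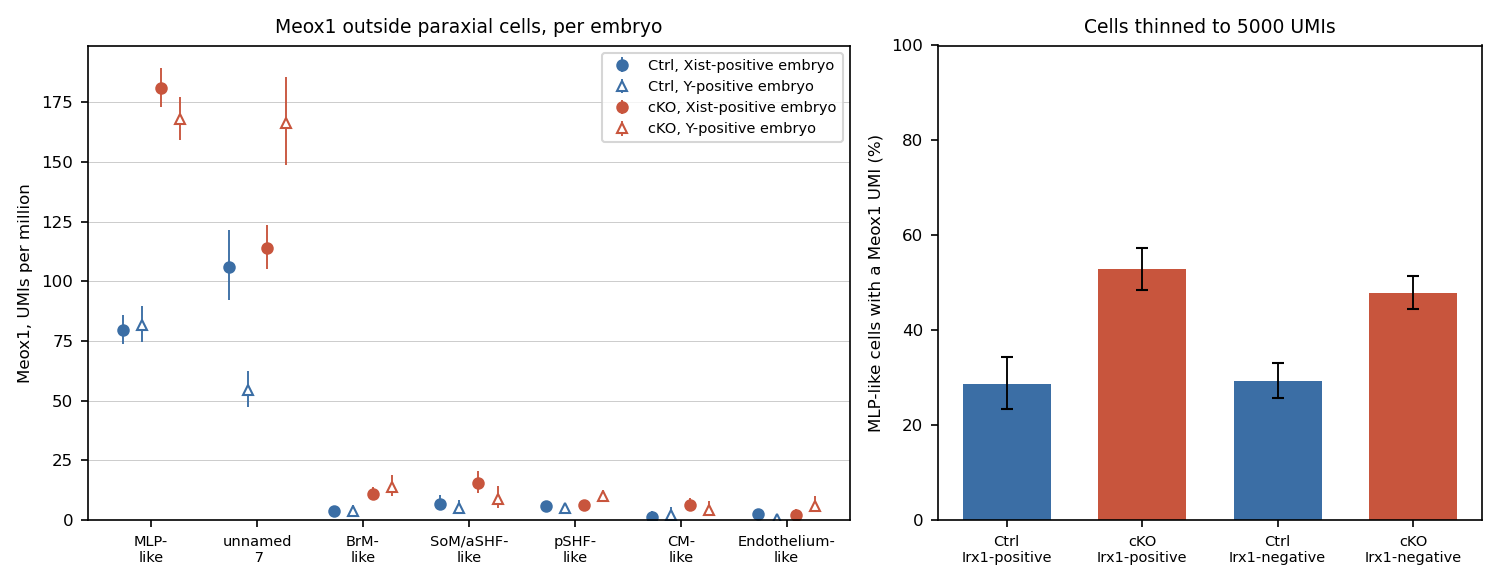
Left, Meox1 levels outside the paraxial mesoderm (unnamed 7 is led by Crym) for the 4 embryos, in CPM with 95% Poisson intervals. Right, share in percent of MLP-like cells with a Meox1 UMI by Irx1 and library, after thinning to 5000 UMIs, with 95% Clopper-Pearson intervals, where 28.6% and 52.9% of Irx1-positive cells had one.

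Taken by library, the order of Meox1 levels differed. In the library labelled Ctrl the Pax3-led cluster stood highest at 287 CPM, then the Pax1-led cluster at 219 CPM and MLP-like cells at 80.3 CPM. An unnamed cluster led by Crym, Fst and Ebf2 followed at 74.7 CPM, and its interval overlapped that of MLP-like cells. In the library labelled cKO the Pax3-led cluster stood at 291 CPM, MLP-like cells at 174 CPM, the Crym-led cluster at 133 CPM and the Pax1-led cluster last of these at 117 CPM. That place came from the Xist-positive embryo, at 32.3 CPM in the Pax1-led cluster and 181 CPM in MLP-like cells. In the Y-positive embryos the Pax1-led cluster stood above MLP-like cells in both, at 113 and 81.8 CPM labelled Ctrl and at 194 and 168 CPM labelled cKO. In the Crym-led cluster the embryos stood at 106 and 54.5 CPM labelled Ctrl and 114 and 166 CPM labelled cKO, and 23.4% of genes were also higher in both embryos labelled cKO. The share of all Meox1 UMIs that lay in MLP-like cells was 22.6% in the library labelled Ctrl and 46.4% in the library labelled cKO. Over all kept cells Meox1 stood at 44.6 and 60.5 CPM, and its embryos overlapped.

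Pax9 went the other way in the progenitors. In MLP-like cells it had 133 and 24 UMIs, or 9.001 and 1.09 CPM (log2 ratio −3.05, −3.74 to −2.41). The embryos stood at 8.43 and 8.31 CPM labelled Ctrl and at 1.45 and 0.722 CPM labelled cKO, without overlap, and 49.5% of genes were likewise lower in both embryos labelled cKO. It was below the floor of 10 CPM over MLP-like cells as a whole. In the larger MLP-like cluster it stood at 11.7 and 1.02 CPM, where 4.65% of genes were at least 2-fold lower, and it reached the floor there only through the library labelled Ctrl, so its call supports nothing further. Of all Pax9 UMIs, MLP-like cells held 19.3% and 3.63%, and the Crym-led cluster held 21.0% and 19.9%.

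Uncx and Meox1 were both higher in BrM-like cells, the branchiomeric muscle progenitors, of the library labelled cKO. Uncx stood at 15.5 and 34.7 CPM (log2 ratio 1.16, 0.89 to 1.44), and was found in 5.71% (30 of 525) and 15.0% (102 of 680) of thinned cells. Its embryos did not overlap, at 17.3 and 12.9 CPM labelled Ctrl and 37.8 and 33.4 CPM labelled cKO, and 24.8% of genes stood higher in both embryos labelled cKO. All 111 genes at least 2-fold higher in these cells also did, so this adds nothing to the 2-fold call of Uncx. Meox1 stood at 4.38 and 12.3 CPM, from 44 and 125 UMIs. Uncx was at least 2-fold higher with 10 CPM or more in both libraries, beside 1.45% of the 7644 genes, whereas Meox1 reached 10 CPM only in the library where it was higher. Meox2 was lower and below the floor, with 87 and 15 UMIs, and its embryos stood at 8.32 and 10.3 CPM labelled Ctrl and 1.04 and 2.18 CPM labelled cKO, where 46.3% of genes were lower in both. Paraxial mesoderm-like cells held 67.7% of all Uncx UMIs in the library labelled Ctrl and 20.4% in the library labelled cKO, while BrM-like cells held 25.7% and 67.9%. Over all kept cells the log2 ratio of Uncx was −0.44.

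Tcf15 was the member found in endothelium-like cells. It stood at 22.8 and 26.8 CPM there, a log2 ratio of 0.23 whose interval included 0 (−0.10 to 0.57). The embryos stood at 25.4 and 21.5 CPM labelled Ctrl and 25.6 and 28.9 CPM labelled cKO, with intervals that overlapped, and 8.17% and 9.87% of thinned cells had a UMI. In SoM/aSHF-like cells Meox1 stood at 6.18 and 13.2 CPM from 38 and 72 UMIs. It reached the floor only through the library labelled cKO, where 0.693% of genes were at least 2-fold higher.

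Genes with a pattern most like each member were found over 43 points, each a cluster of 1 library with at least 20 cells, by Pearson's r of log2(CPM + 10). The points share libraries and cells of like depth, and r is a description. Pax3 was followed by Fap (0.99) and Dmrt2 (0.98), and Pax1 by Zic1 (0.95). Meox2 and Tcf15 were each the closest to the other (0.90). Uncx was closest to Meox2 (0.78), and Pax9 to Saa1 (0.81), Zic1 (0.80) and Pax1 (0.80). Meox1 was closest to Tnfaip6 (0.77), Col26a1 (0.77) and Zfp703 (0.76), none of them a member. Pax1 and Pax3 had an r of 0.43, and Pax3 and Pax9 of 0.08.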

How the data were processed

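Mouse E9.5 embryos were profiled by droplet-based scRNA-seq (10x Chromium 3′). The authors aligned reads to mm10 with Cell Ranger 3.1.0 (named in the submitters' processing notes), and the deposited values are raw counts of UMIs per gene and cell. The 2 libraries, 1 per group, were grouped by the genotype in their labels. The members, lists, alternatives and tests were chosen with earlier results of these data known.

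Cells with at least 1000 genes and at most 10% mitochondrial UMIs were kept, leaving out 411 of 7418 and 508 of 10281 cells. Scrublet (scanpy 1.11.5) called 0 cells automatically in the library labelled Ctrl and 763 in the other, so the highest-scoring cells were removed at 0.8% per 1000 cells, 416 and 804. The deposited libraries held 132017331 and 162874391 UMIs, which sets the counting error.

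Clusters were made in Seurat 5.3.0 under R 4.3.3 by reciprocal principal components, with 2000 variable genes, 30 dimensions and resolution 1, in 2 passes. Members, other genes reported, mitochondrial, ribosomal and sex-linked genes, and in the second pass genes at least 2-fold apart between libraries, were not features. A cluster was named where at least 30% of a fixed marker list and at least 4 markers were met, with at least 1 own marker and no larger number of another class among its 10 leading genes. These thresholds were set after the data were seen, and 17 of 23 clusters were named. The names were rebuilt here, which may itself make populations differ from those of the study.

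UMIs were summed per library and population. Sums carry exact Poisson, ratios exact conditional and shares Clopper-Pearson intervals at 95%, with 3 counts as the limit that a 0 allows (scipy 1.17.1, numpy 2.4.6, pandas 2.3.3). The scripts were tested on simulated data. With 1 library per group no test was made. Genes named in the text were the 8 members, the 3 genes most similar to each in pattern (at least 30 CPM in a cluster) and a list of 34 somite genes; genes that lead or mark clusters are named as such. One result on the somite list is not reported here. Alternatives were other filters, thinning depths, resolutions, clusterings and each embryo alone. Promoters came from RefSeq (GRCm38.p6).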

Additional observations from a re-analysis of the deposited data

Results flagged for a closer look

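In paraxial mesoderm-like cells 3 members went opposite ways in the Xist-positive and the Y-positive embryos with an interval that excluded 0 in each, and the difference between these pairs was not tested. The log2 ratio of cells labelled cKO over cells labelled Ctrl was −2.67 for Meox1 in the Xist-positive embryos (257 and 40.5 CPM) and 0.17 in the Y-positive ones (194.6 and 218 CPM). For Tcf15 it was −2.61 (226 and 37.0 CPM) and 0.32 (179 and 223 CPM). For Pax1 the Xist-positive embryo labelled cKO had 0 UMIs, so the log2 ratio of −7.27 is a bound at 3 counts, and the ratio in the Y-positive embryos was 1.43 (24.9 and 67.4 CPM). Meox2 had ratios of −2.76 and 0.19, and the interval of the latter included 0. Embryo and genotype cannot be told apart within either pair, since each pair holds 1 embryo per group.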

How the results depend on the processing

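With 1 library per group no call can be tested, and embryo, library and genotype cannot be told apart. The higher Meox1 level of MLP-like cells in the library labelled cKO (log2 ratio 1.12) moved by less than its counting error under all 10 alternatives, from 1.04 to 1.19. The difference in Meox1-positive share of Irx1-positive MLP-like cells, 24.3 percentage points, stayed above 0 under all 11 alternatives. It was 16.2 without thinning, 17.5 at 3000 UMIs, 22.8 with the first clustering pass and 19.0 without integration, where the share of a library or of both left its counting interval, and 29.9 in the Xist-positive and 17.6 in the Y-positive embryos. The median log2 ratio of the members in paraxial mesoderm-like cells, −0.87, was −1.05 over members with at least 30 UMIs, −2.71 in the Xist-positive embryos, and −1.13 in the Pax1-led and −0.14 in the Pax3-led cluster alone (−0.15 over its members at the floor), a split chosen after seeing the data. In the Y-positive embryos it turned to 0.25. The difference in cells with Pax1 or Pax9, −7.23 percentage points, was −6.58 without thinning, −11.2 at 3000 UMIs, −6.96 at resolution 0.6, −6.63 with the members as features, −6.83 without integration, −12.2 in the Pax1-led cluster, −22.1 in the Xist-positive and 16.5 in the Y-positive embryos. The difference in the share of paraxial mesoderm-like cells, −0.133 percentage points, was −0.346 at resolution 0.6, −0.397 with the first pass, −0.685 with the members as features, −0.537 without integration, −0.688 with doublets kept, −6.07 in the Xist-positive and 7.47 in the Y-positive embryos. The cause of these shifts was not tested. No paired analysis was possible because each group has 1 library and the labels pair no embryos, so the Xist-positive and Y-positive values are separate comparisons. For Nkx3-2 no difference was detectable at this depth.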
